A study of Rattus norvegicus with 7 samples.

Results

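The Zbtb genes encode transcription factors that carry a BTB domain at one end of the protein and zinc fingers at the other, and their transcripts were followed here in rat kidney cells given an siRNA against Adamts16. Members were chosen by name, as every probe set whose gene symbol in the platform annotation starts with Zbtb followed by a digit. This gave 58 probe sets of 35 genes, out of 20826 probe sets of 14217 genes that the annotation gives 1 symbol. The family itself was selected on earlier results of these same arrays. Its lower signals with 1 of the siRNAs are therefore a description, and nothing is tested for the family as a whole. Symbols do not always follow the protein: Zbtb8os, named for lying opposite Zbtb8 genes, encodes archease, a protein of tRNA ligation, and Zbtb11os1 is an opposite-strand transcript, so 2 of the 35 genes encode no Zbtb protein.

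In these proteins the zinc fingers read a DNA sequence, while the BTB domain forms dimers and recruits corepressors such as NCOR and SIN3 with histone deacetylases, or in some members the ubiquitin ligase built on CUL3. Most known members repress transcription, and several, Kaiso (Zbtb33), Zbtb4 and Zbtb38, can bind methylated DNA. Members are best known from blood and immune cell development, liver, muscle and brain.

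The cells were NRK-52E, an established epithelial line from rat kidney, in medium with 10% serum. Cells seeded at 20% confluence received 100 pmol of siRNA duplex per ml of medium by lipofection, and RNA was taken 48 h later, 5 ug of it being labelled for an Affymetrix array. Adamts16 siRNA 3488 was given to 2 independent cultures, Adamts16 siRNA 2600 to 2 and a scrambled siRNA to 3, with 1 array per culture, so that all 7 arrays share the line, the medium and the transfection. The series concerns Adamts16, a secreted metalloprotease gene studied in connection with inherited hypertension. The antisense strands, without their 2-base overhangs, are shown because the siRNA is the only difference between the groups that the labels give. Each is written 5′ to 3′ with the seed, bases 2 to 8, in capitals.
siRNA 3488: tTTCCGGAgacgtacttct
siRNA 2600: tTGCGCACagaaatatagg
scrambled control: aTTACCGAgcacattggagg

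The signal is a linear brightness in arbitrary units, and the trimmed mean of each array was 500.1 to 500.2, so the deposited values were already scaled. Changes below are differences of log2 signals with their standard errors. A probe set rose or fell where its limma p, adjusted over all 18625 tested probe sets, was under 0.05. The probe set for Adamts16 lay at the 14.4th percentile of brightness, at 12.1 and 40.4 under siRNA 3488, 21.4 and 2.42 with siRNA 2600 and 8.68, 7.18 and 18.9 in the control, so knockdown could not be read from these arrays. Of 15 tubule markers on the array, 4 passed the filter on low signal. The epithelial keratin gene Krt8 was bright (6781 under siRNA 3488, 5921 with siRNA 2600 and 5963 in the control). The epithelial adhesion genes Cdh1 (3.16 with siRNA 3488, 5.69 with siRNA 2600 and 5.13 in the control) and Epcam (2.69 with siRNA 3488, 17.5 with siRNA 2600 and 19.0 in the control) were below the filter, and so was Krt18. The fibroblast collagen gene Col3a1 was at 26451 with siRNA 3488, 19749 with siRNA 2600 and 19397 in the control.

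With siRNA 3488, 14 of the 48 tested Zbtb probe sets fell, belonging to 12 genes, and 0 rose. These were Zbtb22, Zbtb18, Zbtb21, Zbtb1, 3 probe sets of Zbtb20, Zbtb6, Zbtb7c, Zbtb38, Zbtb41, Zbtb43, Zbtb4 and Zbtb34, with log2 changes of -1.05 to -0.35. They make up 29.2% of the tested members; over all tested probe sets 8.74% fell and 6.89% rose. The median log2 change of the 48 was -0.27, beside -0.06 over all tested probe sets, and 39 of the 48 (81.2%) were below 0, beside 58.7%. With siRNA 2600, 0 of the 48 rose or fell in the limma fit, where 1.03% of all tested probe sets were called. At an unadjusted p under 0.05 there were 5 (10.4%, beside 15.2% of all), and the median was -0.04 beside -0.02. Of the 58 probe sets, 10 were too dim to be tested, and Kaiso was the only gene left with no tested probe set. The number of calls for siRNA 3488 depended on single arrays, for Zbtb and for all probe sets: 1 of the 14 remained called without siRNA 3488 replicate 2, where 1.23% of all fell. Without a scrambled control array, 2 remained for replicate 1 (2.33% of all), 3 for replicate 2 (3.31%) and 6 for replicate 3 (4.56%). The Zbtb median was -0.18 without siRNA 3488 replicate 2, and -0.25, -0.27 and -0.28 without control replicates 1, 2 and 3.

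**Figure D1:**
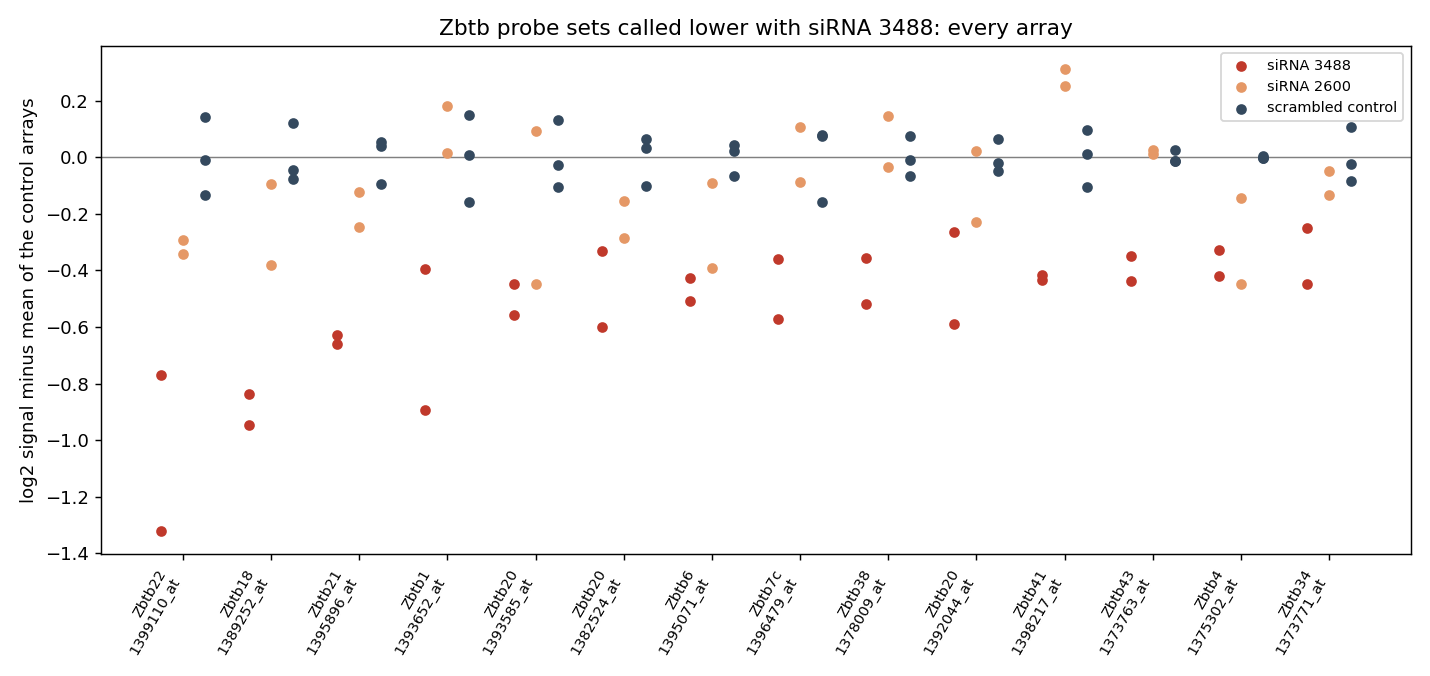
Each point is 1 array's log2 signal minus the mean log2 signal of the 3 scrambled control arrays, for the 14 Zbtb probe sets that fell with siRNA 3488 (red, left), with siRNA 2600 (orange, middle) and the scrambled control (dark blue, right). Both siRNA 3488 arrays lie below all 3 control arrays for every probe set shown, which the choice of called probe sets favours, and the siRNA 2600 arrays of Zbtb41 lie above them.

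Among the members that can bind methylated DNA, Zbtb38 fell with siRNA 3488. Its probe set 1378009_at had signals of 756 and 676 under siRNA 3488, 1071 and 944 under siRNA 2600, and 961, 1018 and 925 in the control, so its log2 change was -0.44 ± 0.09 for siRNA 3488 (limma adjusted p = 0.0130) and 0.06 for siRNA 2600. Both siRNA 3488 arrays were below every other array, and the siRNA 2600 arrays overlapped the control arrays. The other Zbtb38 probe set, 1392413_at, stayed at or below 25.2 on every array and was not tested.

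Zbtb4 gave different answers from its 2 probe sets. Probe set 1375302_at had 587 and 552 under siRNA 3488, 668 and 541 under siRNA 2600, and 740, 736 and 736 in the control (log2 change -0.37 ± 0.10, limma adjusted p = 0.0358). All 4 Adamts16 siRNA arrays were below all 3 control arrays there, with a log2 change of -0.30 for siRNA 2600 (adjusted p = 0.212). Probe set 1375867_at had 1386 and 1326 under siRNA 3488, 1149 and 1172 under siRNA 2600, and 1307, 1214 and 1313 in the control, so the siRNA 3488 arrays were above all the others (0.09 ± 0.07, adjusted p = 0.443). Which of the 2 reads the main Zbtb4 transcript was not tested. Kaiso (1395790_at), the first methylated-DNA binder found in the family, had 37.5 and 33.1 under siRNA 3488, 42.2 and 89.6 under siRNA 2600, and 81.5, 79.3 and 81.3 in the control. Both siRNA 3488 arrays were below all control arrays, but its mean signal lies under the filter level, and when all probe sets were tested the log2 change was -1.20 ± 0.41 (limma adjusted p = 0.123).

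Of the members known as repressors in development, Zbtb18, which restrains genes of neural and muscle precursors in mouse, fell with siRNA 3488 and kept its call under all 16 alternative settings that tested it (log2 change -0.95 to -0.77). Its probe set 1389252_at had 268 and 249 under siRNA 3488, 449 and 369 under siRNA 2600, and 521, 465 and 455 in the control. The siRNA 3488 signals averaged 46.0% below the control, and the log2 change was -0.89 ± 0.13 (limma adjusted p = 0.00362). With siRNA 2600 it was -0.24 (adjusted p = 0.414). The second Zbtb18 probe set, 1387512_at, was dimmer, with 111 and 95.2 under siRNA 3488, 79.2 and 121 under siRNA 2600, and 103, 111 and 133 in the control. Its groups overlapped, and its log2 change of -0.16 ± 0.26 is smaller than its error.

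Zbtb20, the repressor that shuts off alpha-fetoprotein in mouse liver after birth, is covered by 6 tested probe sets, of which 3 fell with siRNA 3488. Probe set 1392044_at, the second brightest of the family, had 1516 and 1209 under siRNA 3488, 1845 and 1552 under siRNA 2600, and 1796, 1760 and 1904 in the control (log2 change -0.43 ± 0.11, limma adjusted p = 0.0247). Probe set 1382524_at had 393 and 326 under siRNA 3488, 444 and 406 under siRNA 2600, and 517, 506 and 461 in the control (-0.47 ± 0.12, adjusted p = 0.0269). In both, the siRNA 3488 arrays were below every other array. Probe set 1393585_at had 1123 and 1042 under siRNA 3488, 1634 and 1122 under siRNA 2600, and 1425, 1680 and 1503 in the control (-0.50 ± 0.14, adjusted p = 0.0351). There siRNA 2600 replicate 2 lay with the siRNA 3488 arrays and replicate 1 with the control arrays. The other 3 probe sets had log2 changes of -0.45 (1385087_at, adjusted p = 0.206), -0.27 (1394849_at, 0.359) and -0.21 (1379578_at, 0.364), and their siRNA 3488 arrays overlapped the control arrays. All 6 were below 0, but probe sets of 1 gene are not replicates.

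Zbtb1, a factor needed for lymphocyte development in mouse, fell on 1 of its 2 probe sets. Probe set 1393652_at had 378 and 268 under siRNA 3488, 564 and 502 under siRNA 2600, and 551, 500.2 and 446 in the control (log2 change -0.64 ± 0.15, limma adjusted p = 0.0216). The 2 siRNA 3488 arrays lie far apart but both are below all others. Probe set 1380914_at had 387 and 402 under siRNA 3488, 374 and 423 under siRNA 2600, and 400.2, 374 and 426 in the control, a log2 change of -0.02 ± 0.11, so the probe sets of Zbtb1 differ in what they show.

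The Zbtb7 genes encode 3 related repressors, of which Zbtb7a acts in red cells and cell growth and Zbtb7b sets the helper T cell fate. Only Zbtb7c was called: 1396479_at had 306 and 264 under siRNA 3488, 423 and 370.4 under siRNA 2600, and 416, 415 and 353 in the control (log2 change -0.47 ± 0.13, limma adjusted p = 0.0390). Both siRNA 3488 arrays were below all others, and the siRNA 2600 arrays overlapped the control arrays. Zbtb7b (1385398_at) had 145 and 127 under siRNA 3488, 172 and 196 under siRNA 2600, and 164, 154 and 163 in the control, with a log2 change of -0.24 ± 0.17. The 3 tested probe sets of Zbtb7a had 0.12 (1387107_at), -0.29 (1378123_x_at) and -0.36 (1378122_a_at), none called. Whether Zbtb7c changed more than Zbtb7a or Zbtb7b was not tested.

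Zbtb17, Zbtb5 and Zbtb49, which act on the cell cycle inhibitor gene Cdkn1a, were not called. Zbtb17 (Miz-1), the partner through which Myc represses that gene, had 554 and 620.1 under siRNA 3488, 704 and 634 under siRNA 2600, and 587, 713 and 619 in the control (log2 change -0.12 ± 0.11). Zbtb5 had a log2 change of -0.27 ± 0.15 and Zbtb49 one of -0.14 ± 0.20. Zbtb2, a repressor of the p53 pathway in human cells, had 0.15 ± 0.16 at its bright probe set 1376916_at. A dim Zbtb2 probe set, 1377425_at, had 31.5 and 64.9 under siRNA 3488, 15.2 and 23.8 under siRNA 2600, and 8.10, 11.6 and 7.68 in the control. All 4 Adamts16 siRNA arrays were above the control arrays there, but all signals lie in the range that was not tested. When all probe sets were tested, its log2 change with siRNA 3488 was 2.33 ± 0.65 (limma adjusted p = 0.0658).

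Of the members whose roles are less well known, Zbtb22 had the largest change of the tested probe sets. Its 1399110_at had 155 and 106 under siRNA 3488, 216 and 208 under siRNA 2600, and 292, 263 and 241 in the control. The siRNA 3488 signals averaged 51.7% below the control, a log2 change of -1.05 ± 0.19 (limma adjusted p = 0.00789). The siRNA 2600 arrays lay between, below all control arrays, with a log2 change of -0.32 that was not called, and the call for siRNA 3488 was lost without siRNA 3488 replicate 2. Zbtb21, a repressor in human cells, had 159 and 163 under siRNA 3488, 231 and 212 under siRNA 2600, and 259, 236 and 261 in the control (1395896_at, -0.64 ± 0.14, adjusted p = 0.0163). It shows the same order of the groups, with both siRNA 2600 arrays just below the control arrays.

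Zbtb43 (1373763_at) had 431 and 405 under siRNA 3488, 558 and 553 under siRNA 2600, and 543, 559 and 543 in the control (log2 change -0.39 ± 0.09, limma adjusted p = 0.0192). The siRNA 2600 and control arrays could hardly be told apart, and the siRNA 3488 arrays were clearly under both. Zbtb34 (1373771_at), its neighbour in the genome, had 558 and 487 under siRNA 3488, 606 and 642 under siRNA 2600, and 654, 715 and 626 in the control (-0.35 ± 0.10, adjusted p = 0.0428). Its siRNA 3488 arrays were below all others, and its siRNA 2600 arrays overlapped the control arrays. Zbtb6 (1395071_at) had 277 and 261 under siRNA 3488, 284 and 349 under siRNA 2600, and 377, 355 and 383 in the control (-0.47 ± 0.13, adjusted p = 0.0362), and all 4 Adamts16 siRNA arrays were below the control arrays. The second Zbtb6 probe set, 1383470_at, had -0.31 ± 0.10 and was not called (adjusted p = 0.0679).

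Zbtb41 (1398217_at) had 217 and 214 under siRNA 3488, 359 and 345 under siRNA 2600, and 309, 291 and 269 in the control. It fell with siRNA 3488 (log2 change -0.42 ± 0.13, limma adjusted p = 0.0472), while both siRNA 2600 arrays were above all control arrays (0.28, adjusted p = 0.322). Zbtb41 was no longer called after quantile normalization, cyclic loess or median centring. Among the probe sets that fell with siRNA 3488 against the control, it is the only one in which the control arrays lie between the arrays of the 2 siRNAs. Zbtb44 (1379439_at) was outside the rule for named members and was chosen after its values were seen. It has the same order, with 368 and 406 under siRNA 3488, 582 and 588 under siRNA 2600, and 580, 468 and 461 in the control, although siRNA 2600 replicate 1 lay just above the highest control array (-0.37 ± 0.12, adjusted p = 0.0632, and 0.23 for siRNA 2600).

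Of the 3 brightest probe sets of the family, the Zbtb20 one described above fell and those of Zbtb8os and Zbtb8a were not called. Zbtb8os (1389907_at), the archease gene and so no Zbtb protein, had 1952 and 2010.1 under siRNA 3488, 2192 and 2074 under siRNA 2600, and 1851, 1831 and 1695 in the control. All 4 Adamts16 siRNA arrays were above the control arrays, with log2 changes of 0.15 ± 0.07 for siRNA 3488 (limma adjusted p = 0.174) and 0.25 ± 0.07 for siRNA 2600 (0.121). Zbtb8a (1385472_at), a Zbtb gene of the locus after which Zbtb8os is named, had 1307 and 1360.1 under siRNA 3488, 1526 and 1427 under siRNA 2600, and 1351, 1258 and 1234 in the control, log2 changes of 0.06 and 0.21. Its second probe set, 1397882_at, had 0.21 and 0.34, so none of these 3 probe sets was below the control on average with either siRNA. The remaining tested members were not called: their log2 changes with siRNA 3488 ran from -0.84 (Zbtb11os1, adjusted p = 0.0785) to 0.20 (a Zbtb24 probe set, 1384362_at).

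**Figure D2:**
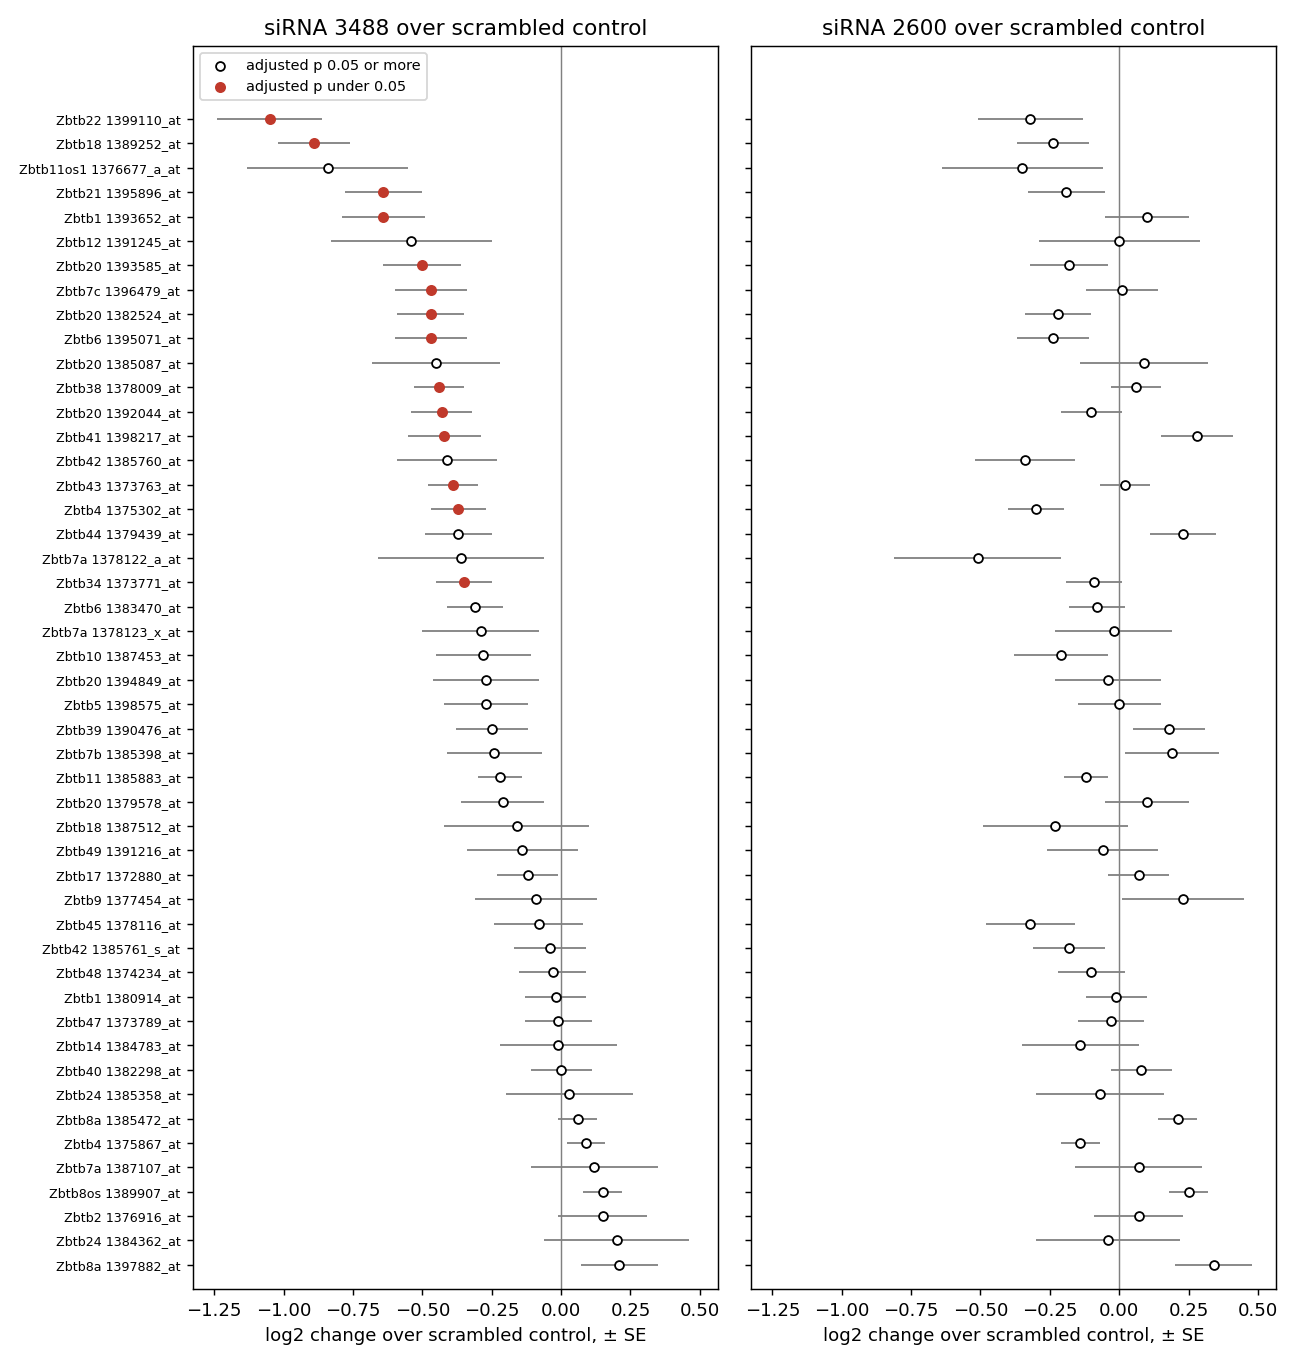
Log2 change over the scrambled control with its standard error for all 48 tested Zbtb probe sets, ordered by the change with siRNA 3488 (left panel, n = 2 against 3), beside the change with siRNA 2600 (right panel, n = 2 against 3). Filled points have an adjusted p under 0.05; there are 14 in the left panel, all below 0, and 0 in the right panel.

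Brightness matters on these arrays, since with siRNA 3488 dim and middling probe sets tended below 0 and the brightest above it. All tested probe sets were split into 5 equal classes of 3725 by mean log2 signal. In the middle class, with mean log2 signals of 8.33 to 9.31, 12.2% of all probe sets fell and the median log2 change was -0.11, while 7 of 16 Zbtb probe sets fell and their median was -0.33. In the class below it 7.01% of all fell with a median of -0.12, beside 3 of 16 and -0.25 for Zbtb. In the class above it 12.8% of all fell with a median of -0.07, beside 3 of 7 and -0.22. The dimmest class held 7 Zbtb probe sets, 0 of them called where 3.46% of all fell, with a median of -0.29 beside -0.09. The brightest held 2, of which 1 fell, in a class where 8.21% of all probe sets fell and 22.9% rose. Set against the median of their own class, 32 of the 48 were lower, and the median distance was -0.16.

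**Figure D3:**
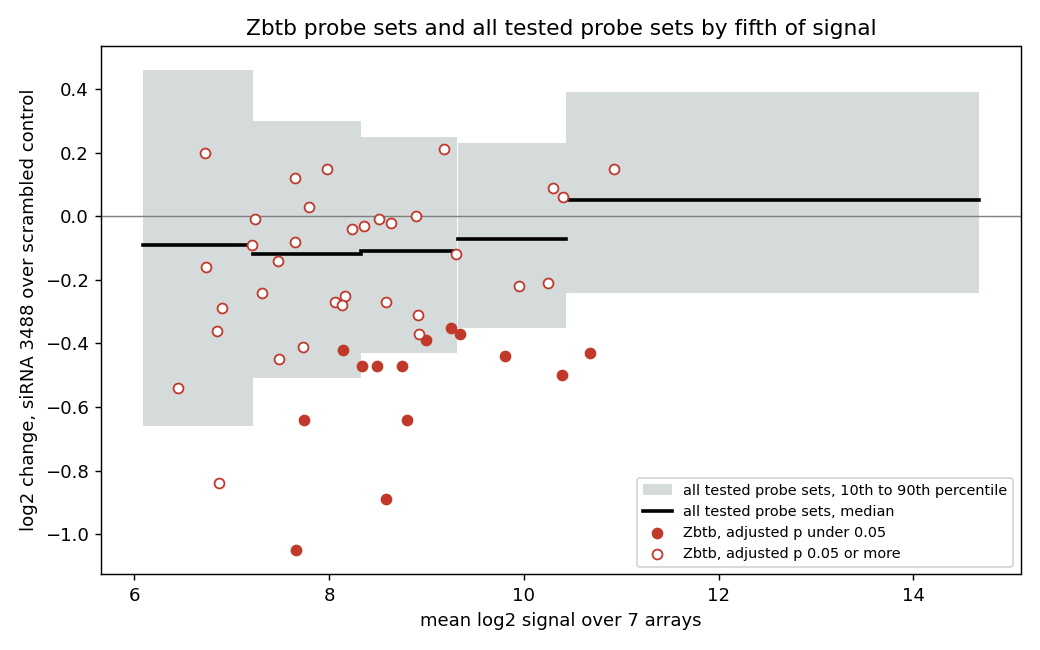
Log2 change with siRNA 3488 over the scrambled control against mean log2 signal over the 7 arrays for the 48 tested Zbtb probe sets (red, filled where the adjusted p was under 0.05), on the 10th to 90th percentile (grey) and the median (black line) of all tested probe sets in each of 5 classes of 3725. Most Zbtb points lie in the class of middling signal and the class just below it, and 32 of 48 lie below the black line of their class.

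On single arrays, the mean of the 48 probe sets relative to the control mean was -0.21 and -0.31 (log2) with siRNA 3488, -0.02 and -0.08 under siRNA 2600, and 0.03, 0.02 and -0.05 in the control. Beside these means, medians of all probe sets in each brightness class were averaged with the weights of the Zbtb probe sets. They were -0.08 and -0.10 for siRNA 3488, -0.06 and -0.03 for siRNA 2600, and 0.01, 0 and 0 for the control. The plain mean over all tested probe sets was -0.05 and -0.07 for siRNA 3488, and -0.05 and -0.02 for siRNA 2600. On the siRNA 3488 arrays 38 and 41 of the 48 were below the control mean, against 25 and 31 on the siRNA 2600 arrays and 19, 25 and 30 on the control arrays. Of all tested probe sets 57% and 58% were below it for siRNA 3488, 54.5% and 52.4% for siRNA 2600, and 48.2%, 49.6% and 50.7% for the control. The siRNA 3488 arrays thus stood apart from all others in the Zbtb mean, and the siRNA 2600 arrays lay close to or among the control arrays. Both siRNA 3488 arrays were below all 3 control arrays for 24 of the 48 probe sets, beside 31.1% over all tested probe sets, and above them for 2, beside 19.2%.

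**Figure D4:**
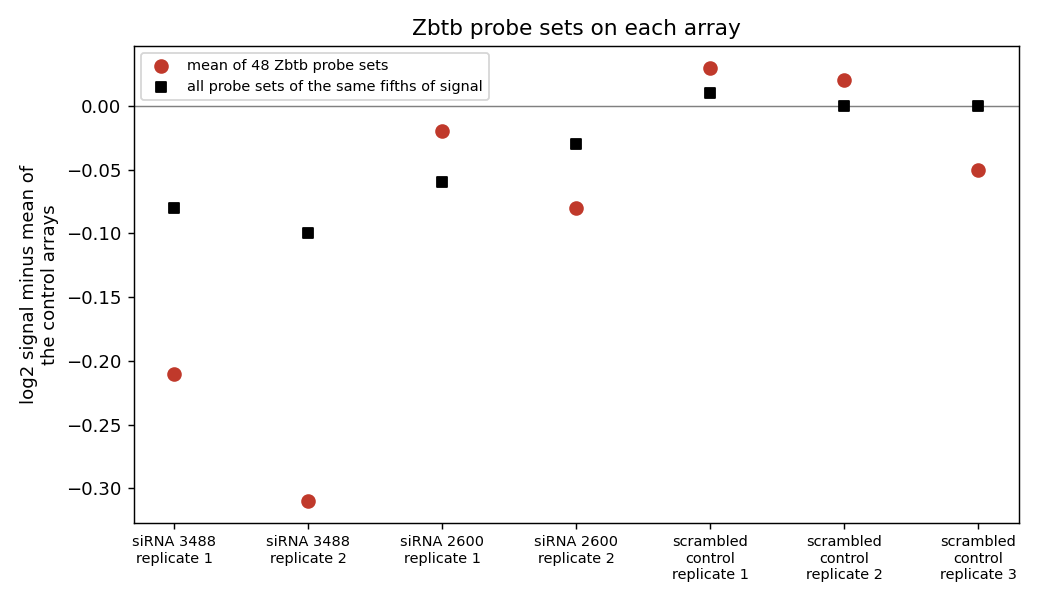
Mean over the 48 tested Zbtb probe sets (red circles) of each array's log2 signal minus the control mean, and the same for all tested probe sets of the same brightness classes (black squares, class medians weighted as the Zbtb probe sets are). The siRNA 3488 arrays are at -0.21 and -0.31 for Zbtb against -0.08 and -0.10 for the classes.

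Measures of the arrays themselves also differed for siRNA 3488. The actin control probe sets compare signal at the 3′ end with the 5′ end, a ratio that is higher where RNA or cDNA is shortened, and it was 1.96 and 1.94 under siRNA 3488, 1.83 and 1.81 under siRNA 2600, and 1.74, 1.76 and 1.79 in the control. The mean log2 signal of 18 spike-in control probe sets was 0.33 and 0.70 above the control mean with siRNA 3488, and -0.09 and 0.13 with siRNA 2600. The summed signal of the 8 fibroblast markers was 28398 to 32350 with siRNA 3488, 22624 to 24199 with siRNA 2600 and 21967 to 22703 in the control. Most of it was the collagen gene Col3a1, which rose with siRNA 3488 (log2 change 0.44, limma adjusted p = 0.00682). Col1a1 rose too (0.44, 0.00795), while Col1a2 (0.30, 0.121) and Pdgfrb (0.08, 0.866) were not called. Dcn was under the filter (22.1 with siRNA 3488, 43.8 with siRNA 2600 and 31.7 in the control). In the same order, so were Thy1 (19.6, 30.4 and 30.3), Lum (14.2, 8.83 and 3.08) and Pdgfra (8.58, 7.13 and 9.29). The sum of 15 tubule markers, mostly Krt8, was 7411 to 8040 with siRNA 3488, 6643 to 6685 with siRNA 2600 and 6380 to 7011 in the control. That of 3 endothelial markers was 254 to 300.2 with siRNA 3488, 214 to 306 with siRNA 2600 and 258 to 302 in the control. That of 3 leukocyte markers was 416 to 426 with siRNA 3488, 251 to 298 with siRNA 2600 and 262 to 274 in the control. Of these only Cd68 passed the filter, and it rose with siRNA 3488 (log2 change 0.67, limma adjusted p = 0.0141), while the defining leukocyte gene Ptprc was near the lowest signals (3.39 with siRNA 3488, 6.92 with siRNA 2600 and 4.73 in the control). The part of these differences in the Zbtb result was not tested, and fewer cells of a kind and less RNA per cell cannot be told apart in such samples.

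Against siRNA 2600, siRNA 3488 gave 6 lower and 0 higher Zbtb probe sets of 48, beside 3.17% lower and 2.84% higher over all tested probe sets. The lower ones were Zbtb1 (log2 difference -0.74 ± 0.17, limma adjusted p = 0.0355), Zbtb41 (-0.71 ± 0.14, 0.0219), Zbtb18 (-0.66 ± 0.14, 0.0282), Zbtb44 (-0.60 ± 0.13, 0.0329), Zbtb38 (-0.49 ± 0.10, 0.0252) and Zbtb43 (-0.41 ± 0.10, 0.0421). For these 6 the siRNAs differed beyond the spread between arrays. For Zbtb22 the difference of -0.73 ± 0.21 did not pass (adjusted p = 0.0677), nor did that for Zbtb21 (-0.46, 0.114) or for the 3 Zbtb20 probe sets (-0.25 to -0.32), and for Zbtb4 it was -0.08 (1375302_at). This comparison uses the same siRNA 3488 arrays as the one above and is not independent of it. The result depended on single arrays, for Zbtb and for all probe sets. Without a scrambled control array, the count of 6 was 2 for replicate 1, where 1.29% of all were lower. It was 0 for replicate 2 (1.15% of all) and 4 for replicate 3 (1.64%). The median log2 difference of the 48 was -0.22 as reported. It was -0.16 without siRNA 3488 replicate 2 and -0.17 without siRNA 2600 replicate 1.

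With both siRNAs as 1 group against the control, 0 of the 48 were called by limma, beside 0.145% of all tested probe sets, with 12 at an unadjusted p under 0.05 (25%, beside 17.8% of all) and the lowest adjusted p at 0.135. The median log2 change was -0.16, beside -0.05. For siRNA 2600 alone the lowest adjusted p was 0.121 (Zbtb8os, above the control). Of the 14 probe sets that fell with siRNA 3488, 9 had a negative log2 change with siRNA 2600, between -0.32 and -0.09. The siRNA comparisons share the 3 control arrays, which alone makes their changes resemble each other.

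BTB zinc finger genes that go by other names include 8 on the array, 6 of them tested. With siRNA 3488, 2 fell and 0 rose, with a median log2 change of -0.30, where 8.74% of all tested probe sets fell and their median was -0.06. Mynn (myoneurin) had 897 and 805 under siRNA 3488, 1156 and 1085 under siRNA 2600, and 1179.85, 1131 and 1193 in the control, and fell by 0.46 on the log2 scale (limma adjusted p = 0.00690). Bcl6, the repressor of the germinal centre B cell, had 636 and 499 under siRNA 3488, 654 and 567 under siRNA 2600, and 791, 734 and 743 in the control (-0.42 ± 0.12, adjusted p = 0.0362). For Bcl6 all 4 Adamts16 siRNA arrays were below the control arrays, whereas for Mynn the siRNA 2600 arrays overlapped them.

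Of 24 tested genes for partners of BTB domains (corepressors, deacetylases and CUL3 ligase parts), 3 fell and 2 rose with siRNA 3488, with a median log2 change of -0.04. Over all tested probe sets 8.74% fell and 6.89% rose, so these counts lie near the background. The class IIa deacetylase gene Hdac4 (-0.87, limma adjusted p = 0.0370), the corepressor gene Rcor1 (-0.52, 0.0225) and the NCOR complex gene Tbl1xr1 (-0.28, 0.0487) fell. The corepressor gene Sin3b (0.28, 0.0310) and the CUL3 ligase ring subunit gene Rbx1 (0.30, 0.0202) rose. Of 16 genes known as direct targets of BTB zinc finger proteins in mouse or human cells, 8 were tested; the cyclin gene Ccna2 rose (0.46, adjusted p = 0.0122), 0 fell, and the median was 0.13. Cdkn1a had 0.16 and was not called (adjusted p = 0.138). With siRNA 2600 none of these listed genes was called by limma.

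Other zinc finger and BTB families are set beside the Zbtb genes as a description. With siRNA 3488, 5 of 26 tested Klf probe sets fell (19.2%) and 0 rose, with a median log2 change of -0.16. Of 272 Zfp probe sets 30 fell (11%) and 5 rose (1.84%), with a median of -0.13. Of 39 probe sets of Klhl and Kbtbd genes, which have a BTB domain but no zinc fingers, 1 fell (2.56%), with a median of -0.12. The Zbtb share of 29.2% and median of -0.27 were the largest of these 4 families, but the differences between families were not tested. Zbtb was also selected on these same arrays, which favours this order. Against siRNA 2600, siRNA 3488 gave 12.5% lower and a median of -0.22 for Zbtb, and 11.5% and -0.24 for Klf. The values were 5.51% and -0.12 for Zfp, and 5.13% and -0.04 for Klhl and Kbtbd.

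Promoters were read for the 31 of 35 genes matched in RefSeq (assembly GRCr8), as the 250 bases before the annotated start. Not all of these windows need be promoters, since the starts were not checked against transcripts. The Zbtb7b window reads as coding sequence for a BTB domain, and that of Zbtb38 holds 0 CpG. All 31 windows were counted. They held a median of 19 CpG dinucleotides, beside 5 over 33469 promoters, and a median GC content of 61.2% beside 51.2%. Of 6 motifs searched on both strands, the ETS-type site CCGGAAG was in 6 of the 31 (19.4%), beside 7.27% of all promoters. The counts were 3 for the E-box CACGTG (9.68% beside 5.59%), 7 for CCAAT (22.6% beside 34.0%), 3 for TATAAA (9.68% beside 12.9%), 1 for the Kaiso palindrome core CTCGCGAG (3.23% beside 0.624%) and 2 for GCATGCGC, part of an NRF1 site (6.45% beside 2.20%). The ETS-type site was in 3 of the 10 matched genes with a probe set that fell with siRNA 3488 and in 2 of the 20 matched tested genes with none. These are matches of letters, not sites shown to be used, and both sets are small. The 33469 promoters were not limited to genes on the array or matched to the Zbtb windows in CpG count. The motifs that contain a CpG were more frequent in the CpG-richer Zbtb windows, and those without one were less frequent. Whether any motif share differs from that of promoters with a similar CpG count was not tested. Zbtb34 (chr3:37123759-37124008, minus strand) and Zbtb43 (chr3:37161486-37161735, minus strand) are shown because these neighbours both fell and both hold the ETS-type site, and Zbtb18 (chr13:91971352-91971601, plus strand) because its call held in each setting; it has 44 CpG, the most of the 31, and none of the 6 motifs in this window. Each is written 5′ to 3′ along the gene, and capitals mark CCGGAAG or its reverse complement CTTCCGG and, in Zbtb43, the reverse complement TTTATA of TATAAA.
Zbtb34: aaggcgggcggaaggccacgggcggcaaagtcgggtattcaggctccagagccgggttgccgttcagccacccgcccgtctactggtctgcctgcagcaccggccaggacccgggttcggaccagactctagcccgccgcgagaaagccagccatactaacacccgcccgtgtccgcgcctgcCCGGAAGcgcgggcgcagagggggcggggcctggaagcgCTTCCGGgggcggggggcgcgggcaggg
Zbtb43: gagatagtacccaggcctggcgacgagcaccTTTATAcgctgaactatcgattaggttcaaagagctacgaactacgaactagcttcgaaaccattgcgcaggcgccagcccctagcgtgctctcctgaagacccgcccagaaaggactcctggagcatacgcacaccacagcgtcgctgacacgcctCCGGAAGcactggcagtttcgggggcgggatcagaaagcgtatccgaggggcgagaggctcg
Zbtb18: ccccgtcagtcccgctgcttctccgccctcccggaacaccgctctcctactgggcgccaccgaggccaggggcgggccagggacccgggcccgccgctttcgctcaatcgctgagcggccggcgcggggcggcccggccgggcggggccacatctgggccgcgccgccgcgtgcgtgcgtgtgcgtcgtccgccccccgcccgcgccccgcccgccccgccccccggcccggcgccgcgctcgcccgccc

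The share of Zbtb probe sets that fell with siRNA 3488 depended on the setting, and so did the share of all probe sets. It was 12.5% beside 5.30% after quantile normalization, 8.33% beside 3.09% after median centring, and 2.08% beside 1.23% without siRNA 3488 replicate 2. The median change of the Zbtb probe sets was -0.16 after quantile normalization, -0.18 after median centring, where the median of all probe sets was 0.03, and -0.18 without that array. In none of the settings run did a tested Zbtb probe set rise with siRNA 3488, and in each of them the Zbtb share that fell was above the share of all probe sets. In some settings this rested on few probe sets, such as 2 of 48 (4.17% beside 2.33%) without scrambled control replicate 1. All settings reuse the arrays on which the family was selected, so they are not independent support.

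**Figure D5:**
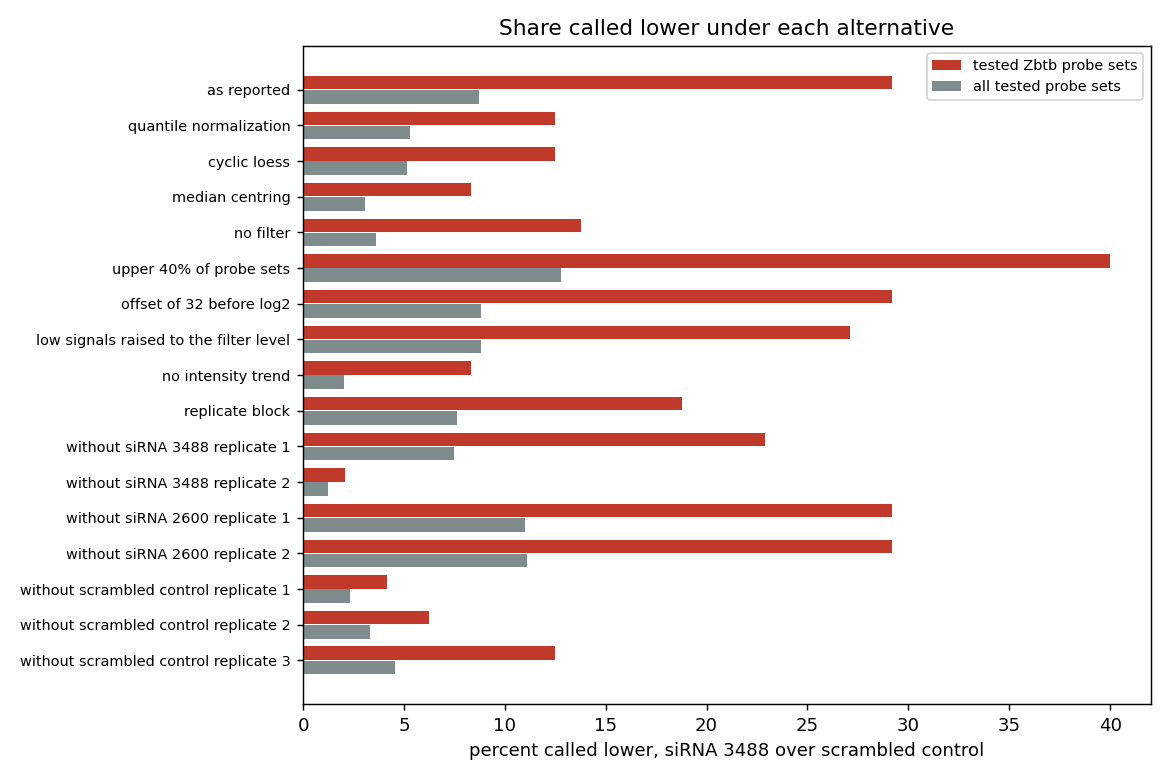
Percent of tested Zbtb probe sets (red) and of all tested probe sets (grey) with a lower signal at an adjusted p under 0.05, siRNA 3488 over scrambled control, as reported and under each of 16 other settings. The Zbtb bar is the longer in each pair, by little in some: it is 29.2% as reported and 4.17%, beside 2.33% of all, without scrambled control replicate 1. All settings reuse the arrays on which the family was selected.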

How the data were processed

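The authors deposited array intensity, as 1 linear signal for each probe set on each array. GCOS 1.4 produced them, according to the submitters' processing notes, with background and scaling settings not given in the sources used here. Signals under 1 were set to 1, log2 was taken and the deposited scaling was kept. Without the 57 control probe sets, the brightest 60% of probe sets (18625 of 31099 rows, mean log2 signal of at least 6.09) were tested with limma 3.58.1 in R 4.3.3 (lmFit, then eBayes with an intensity trend); p-values were adjusted over all of them by Benjamini-Hochberg. Single siRNAs and their difference were fitted as 3 groups on all 7 arrays, and both siRNAs against the control as 2 groups. The fits were checked on data made up with known changes.

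Each array is an independent culture, per the series design, and with so few arrays every value is imprecise. Members, lists and tests were chosen with earlier results of these data known. Values on every array are given for called members (the 14 with the lowest p for siRNA 3488), the 3 brightest and other probe sets of those genes. Lists used the brightest probe set per gene. Gene symbols are from the platform annotation, which can be old. RefSeq holds no promoter entry in the table used here for Zbtb10, Zbtb11, Zbtb20 and Zbtb21. Alternatives were quantile normalization, cyclic loess, median centring, an offset of 32 before log2, testing without a filter or only the upper 40% of probe sets, low signals raised to the filter level, no intensity trend, the replicate number as a block and leaving out each array.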

Additional observations from a re-analysis of the deposited data

Results flagged for a closer look

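The effects of the 2 Adamts16 siRNAs differed for 6 of the 48 tested Zbtb probe sets (limma adjusted p under 0.05). All 6 were lower in the direct comparison of siRNA 3488 with siRNA 2600. Over all tested probe sets 3.17% were lower and 2.84% higher. The log2 differences were -0.74 for Zbtb1, -0.71 for Zbtb41, -0.66 for Zbtb18, -0.60 for Zbtb44, -0.49 for Zbtb38 and -0.41 for Zbtb43. The Zbtb20 probe set 1393585_at was set apart by 1 array. Among its 4 Adamts16 siRNA arrays, siRNA 2600 replicate 1 (1634) lay far above siRNA 3488 replicates 1 and 2 and siRNA 2600 replicate 2 (1123, 1042 and 1122). On the log2 scale the gap was 0.833 of the whole range. A gap of this kind is found by chance in about 1 group in 20 where the arrays of a group are alike, but these 4 carry 2 siRNAs. That rate is for 1 group, while this probe set was flagged from among the members. The array at 1634 lay within the range of the control arrays (1425 to 1680).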

How the results depend on the processing

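The number of Zbtb probe sets called lower with siRNA 3488 was 14 as reported, 6 after quantile normalization, 6 after cyclic loess, 4 after median centring, 8 with no filter and 4 with no intensity trend. It ran from 1 to 14 when each array was left out in turn. Where a siRNA kept 1 array, that array was assumed to vary like the other groups. Every probe set called under these settings was among the 14, except 1 (Zbtb20 1385087_at) without siRNA 3488 replicate 1. For siRNA 3488 against siRNA 2600 the count was 6 as reported, where 3.17% of all tested probe sets were lower. It was 3 after quantile normalization (1.80% of all), 3 after cyclic loess (2.00%) and 3 with no filter (0.889%). With no intensity trend it was 0 (0.0161%), and it was 0 to 4 when a control array was left out. For both siRNAs it was 0 as reported and 0 to 4 when an array was left out. The 4, all lower, came without siRNA 2600 replicate 1. In that setting 7% of all tested probe sets were called and 3.83% fell, beside 0.145% called as reported. For siRNA 2600 the Zbtb count was 0 in each setting. None of the 14, nor Zbtb44, Zbtb8os or Zbtb8a (1385472_at), changed sign with siRNA 3488 in a setting that tested it. Replicate numbers were fitted as a block although the labels tie them to no shared batch: arrays of the same number deviated together weakly (r of 0.14, 0.05 and 0.07 across 18625 probe sets), and with the replicate block 9 were called with siRNA 3488 and 5 against siRNA 2600. Leaving out the 2 symbols that name no Zbtb protein gave 14, and the brightest probe set of each gene gave 10 of 34; both were added after seeing the data. The causes were not tested. Members under the filter, such as Zbtb33, were tested only with no filter.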
